A study of Mus musculus with 10 samples.

Results

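The 10 genes described here form the core of the circadian clock and its first output layer. They were chosen as a list of gene symbols: Arntl, Clock, Npas2, Per1, Per2, Per3, Cry1, Nr1d1, Nr1d2 and Dbp. All 10 were present among the 30319 genes with a symbol, and all 10 passed the filter of at least 1 TPM in at least 2 libraries, as did 16932 genes in all. Total RNA depleted of ribosomal RNA was sequenced from whole subcutaneous mammary adipose tissue (inguinal pads) of FVB females. The mice carried the FAP-/- genotype, a disruption of the gene of fibroblast activation protein, or were wild type. Matched high-fat (60% of kcal) or low-fat (10% of kcal) food was given between 12 and 30 weeks of age. The 10 libraries are 3 null high-fat (Null_HFD), 2 wild-type high-fat (WT_HFD), 3 null low-fat (Null_LFD) and 2 wild-type low-fat (WT_LFD) samples. The hour at which the pads were taken is not given in the sources used here.

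In the mammalian clock, the proteins of Arntl (BMAL1) and Clock, or of its relative Npas2, bind E-box elements and switch on the Per, Cry and Nr1d genes. The PER and CRY proteins then inhibit that complex, and the REV-ERB receptors encoded by Nr1d1 and Nr1d2 repress Arntl, so Arntl transcripts peak when Nr1d and Dbp transcripts are low. DBP is a transcription factor that carries the rhythm to output genes through D-box elements, and adipose tissue is among the tissues in which these transcripts cycle daily.

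Fap itself measured 22.3 to 38.4 TPM in Null_HFD, 37.7 to 68.8 TPM in WT_HFD, 18.3 to 22.4 TPM in Null_LFD and 39.2 to 45.4 TPM in WT_LFD libraries, so its transcript was still counted in null pads and the highest Null_HFD library lay above the lowest WT_HFD one. Adipocyte markers, 10 genes such as Adipoq and Plin1, summed to between 12105 and 35924 TPM, the lowest in Null_HFD 3. A list of 10 lymph node markers summed to 1590 TPM in Null_HFD 3 and 605 TPM in WT_HFD 2, against 14.9 to 23.6 TPM in the other 8 libraries, so results are also given without these libraries. Skeletal muscle markers were lowest in the same libraries, at 154 TPM in Null_HFD 3 and 342 TPM in WT_HFD 2, against 2636 to 12248 TPM elsewhere. The lymph node markers Cd79a and Ccr7 were at most 1.90 TPM in each of those 8 libraries. Of the milk protein genes, Csn2 was listed at 0 in Null_HFD 3 only, where Csn3 measured 124 TPM. Wap was listed at 0 in Null_HFD 3 and also in Null_HFD 2, WT_LFD 1 and WT_LFD 2. In whole pads, fewer cells of a type and less RNA per cell cannot be told apart.

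The 10 transcripts spanned a wide range of levels, given here as TPM, which is corrected for transcript length. Averaged over the 10 libraries, Nr1d2 stood at 54.3 ± 11.8 TPM (SD, n = 10), Nr1d1 at 35.3 ± 11.1, Per1 at 26.6 ± 5.78, Per3 at 21.9 ± 7.37 and Dbp at 21.4 ± 10.3. Clock followed at 19.4 ± 3.48 TPM, Arntl at 9.32 ± 3.08, Per2 at 7.50 ± 3.30, Cry1 at 5.75 ± 2.15 and Npas2 at 3.09 ± 1.84 (SD, n = 10 each). Nr1d2 lay above Nr1d1 in 10 of 10 libraries, Clock above Arntl in 9 and Cry1 above Npas2 in 9. Neighbours elsewhere in that order changed places, since Nr1d1 lay above Per1 in 6 libraries, Per1 above Per3 in 7, Per3 above Dbp in 6, Dbp above Clock in 5, Arntl above Per2 in 6 and Per2 above Cry1 in 6. Npas2 varied most between libraries, with its highest value 5.78 times its lowest, followed by Per2 at 3.95 times and Dbp at 3.76 times. Per1, Clock and Nr1d2 varied least, at 1.83, 1.91 and 1.99 times.

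**Figure D1:**
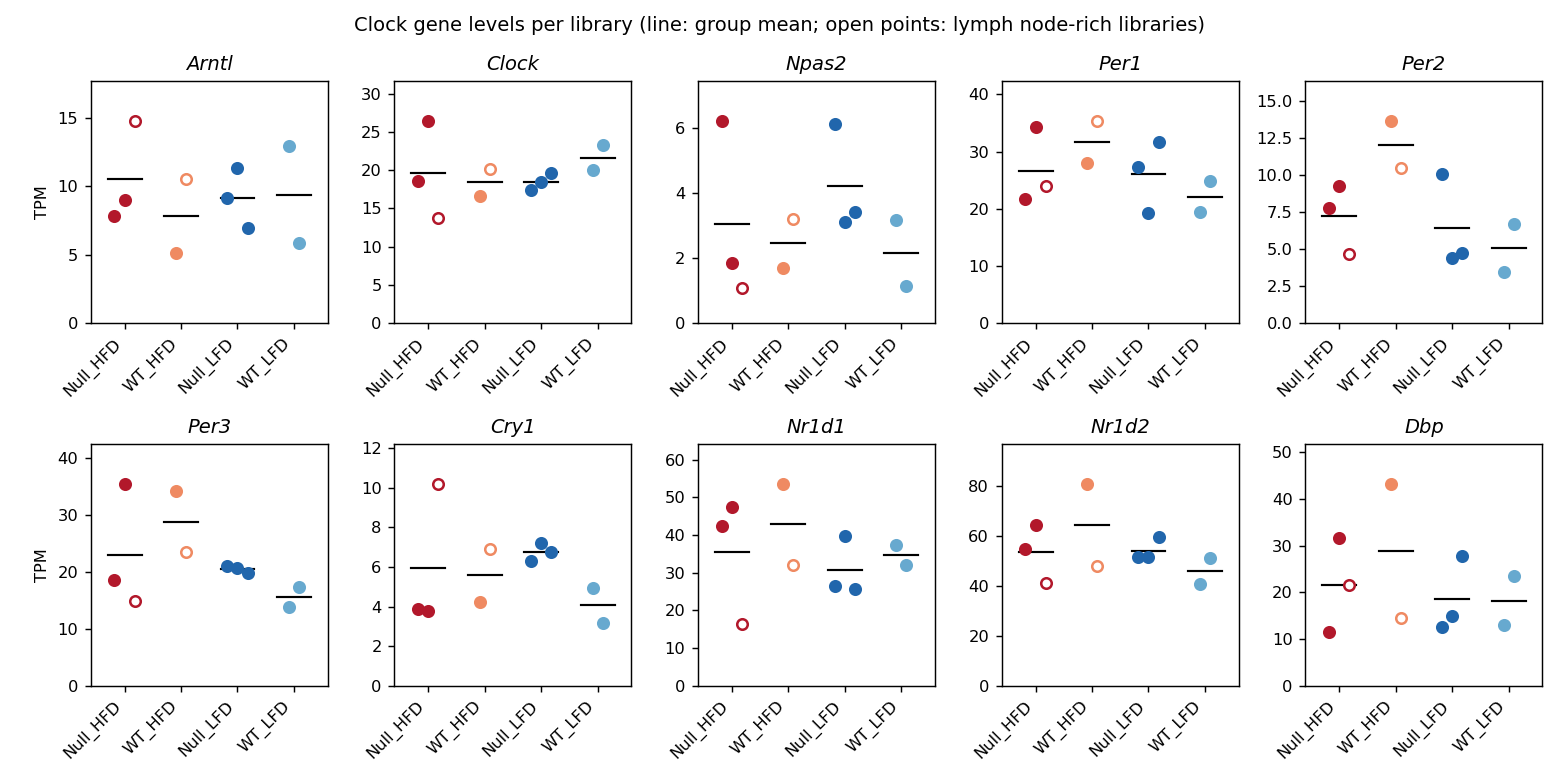
Level of each of the 10 clock genes in TPM (vertical axes, linear and starting at 0) by group; each point is 1 library, lines are group means, and open points are Null_HFD 3 and WT_HFD 2, the libraries rich in lymph node markers. Arntl, Npas2, Nr1d1 and Dbp overlap in each pair of groups compared in the text, while Clock, Per1, Per3, Cry1 and Nr1d2 do not in some. Per2 lies between 10.4 and 13.6 TPM in WT_HFD libraries, above the 3 Null_HFD and both WT_LFD values.

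Arntl, which encodes the activator BMAL1 and lies at 113207465 to 113314126 on chromosome 7 (GRCm38, plus strand), measured 7.80, 8.97 and 14.7 TPM in Null_HFD, 5.12 and 10.5 TPM in WT_HFD, 9.11, 11.3 and 6.92 TPM in Null_LFD, and 12.9 and 5.84 TPM in WT_LFD libraries. High and low values fell within each group, and the highest was Null_HFD 3. Clock, at 76209868 to 76304792 on chromosome 5, measured 18.5, 26.4 and 13.8 TPM in Null_HFD and 16.7 and 20.2 TPM in WT_HFD pads. On the low-fat diet it measured 17.4, 18.5 and 19.6 TPM in null and 20.0 and 23.3 TPM in wild-type pads, where the groups did not overlap. Npas2, at 39193731 to 39363236 on chromosome 1, encodes a partner that can stand in for CLOCK. It measured 6.19, 1.83 and 1.07 TPM in Null_HFD, 1.69 and 3.20 TPM in WT_HFD, 6.12, 3.09 and 3.40 TPM in Null_LFD, and 3.17 and 1.13 TPM in WT_LFD libraries. Replicate 1 of both null groups held its highest values.

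Per1, the first of the Per repressors, at 69095217 to 69109960 on chromosome 11, measured 21.6, 34.2 and 24.0 TPM in Null_HFD, 28.0 and 35.3 TPM in WT_HFD, 27.4, 19.3 and 31.6 TPM in Null_LFD, and 19.4 and 24.9 TPM in WT_LFD libraries. Per2, at 91415982 to 91459324 on the minus strand of chromosome 1, measured 7.74, 9.27 and 4.66 TPM in Null_HFD, 13.6 and 10.4 TPM in WT_HFD, 10.0, 4.39 and 4.74 TPM in Null_LFD, and 3.44 and 6.65 TPM in WT_LFD libraries. Both WT_HFD values of Per2 were the highest of the 10. Per3, at 151003652 to 151044665 on the minus strand of chromosome 4, measured 18.6, 35.4 and 14.8 TPM in Null_HFD, 34.2 and 23.4 TPM in WT_HFD, 21.1, 20.6 and 19.9 TPM in Null_LFD, and 13.9 and 17.4 TPM in WT_LFD libraries. Null_HFD 2 and WT_HFD 1 stood above the rest. Cry1, at 85131700 to 85185064 on the minus strand of chromosome 10, encodes a cryptochrome that blocks CLOCK and BMAL1. It measured 3.86, 3.79 and 10.2 TPM in Null_HFD, 4.26 and 6.91 TPM in WT_HFD, 6.32, 7.21 and 6.79 TPM in Null_LFD, and 4.96 and 3.18 TPM in WT_LFD libraries. Its highest value, like that of Arntl, was in Null_HFD 3.

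Nr1d1, one of the REV-ERB repressor genes, at 98767932 to 98775333 on the minus strand of chromosome 11, measured 42.4, 47.4 and 16.4 TPM in Null_HFD, 53.6 and 32.2 TPM in WT_HFD, 26.4, 39.8 and 25.6 TPM in Null_LFD, and 37.4 and 32.1 TPM in WT_LFD libraries. Its 3′ end overlaps Thra on the opposite strand by 1075 bases in GENCODE M21, and Thra measured 38.2 to 94.4 TPM, so part of the Nr1d1 value is uncertain unless strand was used in counting. Dbp overlaps Sphk2 (8.28 to 15.3 TPM) in the same way by 737 bases, and Per3 lies within the Camta1 annotation on the same strand (8.07 to 18.7 TPM). Nr1d2, at 18204054 to 18239127 on the minus strand of chromosome 14, measured 54.9, 64.3 and 41.3 TPM in Null_HFD, 80.7 and 47.9 TPM in WT_HFD, 51.4, 51.5 and 59.5 TPM in Null_LFD, and 40.6 and 51.0 TPM in WT_LFD libraries. Dbp, at 45705088 to 45710203 on chromosome 7, measured 11.5, 31.5 and 21.5 TPM in Null_HFD, 43.1 and 14.5 TPM in WT_HFD, 12.6, 15.0 and 27.8 TPM in Null_LFD, and 12.9 and 23.5 TPM in WT_LFD libraries. WT_HFD 1 held the highest value of Nr1d1, Nr1d2 and Dbp and the lowest of Arntl.

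Whether the clock genes followed the loss of Fap was asked by comparing null with wild-type pads, over both diets and within each. Over both diets (6 null against 4 wild-type libraries), 0 of the 10 genes were called by limma at an adjusted p of at most 0.05, where 0% of all 16932 genes were called. None had an unadjusted p under 0.05, against 4.19% of all genes. All 10 genes overlapped between genotypes, where 0.543% of all genes lay without overlap higher and 0.378% lower. Of the 10, 4 were higher and 6 lower in null pads, with a median difference of -0.01 on the log2(TPM + 1) scale against 0.08 for all genes tested. The smallest p values belonged to Cry1 and Npas2. Cry1 differed by 0.31 (SE 0.29, 95% interval -0.35 to 0.97, limma adjusted p = 0.98) and Npas2 by 0.40 (SE 0.40, interval -0.50 to 1.30, limma adjusted p = 0.98). Leaving out 1 library at a time, Cry1 ran between 0.11 (without Null_HFD 3) and 0.46, and Npas2 between 0.14 (without Null_HFD 1) and 0.65 (without WT_LFD 1). Without Null_HFD 3 and WT_HFD 2 together, which leaves a single WT_HFD library, Cry1 differed by 0.26 and Npas2 by 0.75. These intervals hold differences of either sign, so the data do not show that the genotypes are alike.

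Within the low-fat diet, 0 of the 10 genes were called (0% of all genes), and none had an unadjusted p under 0.05 (4.43% of all genes). Per3, Cry1 and Nr1d2 were higher in all 3 null than in both wild-type libraries, 3 of 10 genes against 19.1% of all genes. Clock was lower without overlap, 1 of 10 against 6.3% of all genes. The differences were 0.38 for Per3 (SE 0.34, interval -0.39 to 1.15), 0.64 for Cry1 (SE 0.41, interval -0.29 to 1.57), 0.24 for Nr1d2 (SE 0.27, interval -0.36 to 0.84) and -0.21 for Clock (SE 0.27, interval -0.81 to 0.39). Each had a limma adjusted p of 0.949. Npas2 differed by 0.76 (SE 0.56, interval -0.51 to 2.03, limma adjusted p = 0.949), with overlapping groups. With 1 wild-type library left, these values moved widely. Without WT_LFD 2, Npas2 differed by 0.27, Cry1 by 0.38, Nr1d2 by 0.40, Per3 by 0.53 and Clock by -0.11. Without WT_LFD 1, Npas2 differed by 1.24, Cry1 by 0.89, Nr1d2 by 0.08, Per3 by 0.22 and Clock by -0.32. The median of all genes lay at 0.15 in this comparison, which scaling the libraries by the median of ratios moved to 0.01. After that scaling the low-fat differences were 0.23 for Per3, 0.51 for Cry1, 0.09 for Nr1d2 and -0.36 for Clock, and Per3 and Nr1d2 overlapped between the genotypes. Luminal epithelium markers also differed here, summing to 1645 to 3206 TPM in Null_LFD and 608 and 1343 TPM in WT_LFD libraries, with 9 of 10 markers higher in null pads. Skeletal muscle markers were higher for 10 of 10 (summing to 4436 to 12248 TPM in Null_LFD, against 2636 and 3741 TPM in WT_LFD libraries) and adipocyte markers lower for 8 of 10. The part of these cell types in the clock values was not tested.

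Within the high-fat diet, 0 of the 10 genes were called, against 0.0118% of all genes, and none had an unadjusted p under 0.05 (3.82% of all genes). Of the 10, 3 were higher and 7 lower in null pads, with a median of -0.25 against 0.02 for all genes. No gene of the 10 was higher without overlap (7.73% of all genes). Per2 was lower without overlap in null pads, 1 of 10 against 7.78% of all genes (difference -0.69, SE 0.42, interval -1.64 to 0.25, limma adjusted p = 1). Per3 differed by -0.39 (SE 0.34, interval -1.15 to 0.38, limma adjusted p = 1). Without Null_HFD 3 alone Per2 differed by -0.45 and Per3 by -0.14. Per3 differed by -0.12 without WT_HFD 1, by -0.65 without WT_HFD 2 and by -0.74 without Null_HFD 2. Without Null_HFD 3 and WT_HFD 2 together, where a single wild-type library is left and is assumed to vary like the other groups, Per2 differed by -0.62 and Per3 by -0.40. Luminal epithelium markers were lower in null pads for 10 of 10 genes here, summing to 349 to 1098 TPM in Null_HFD and 1323 and 1733 TPM in WT_HFD libraries, and their part in these values was not tested.

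**Figure D2:**
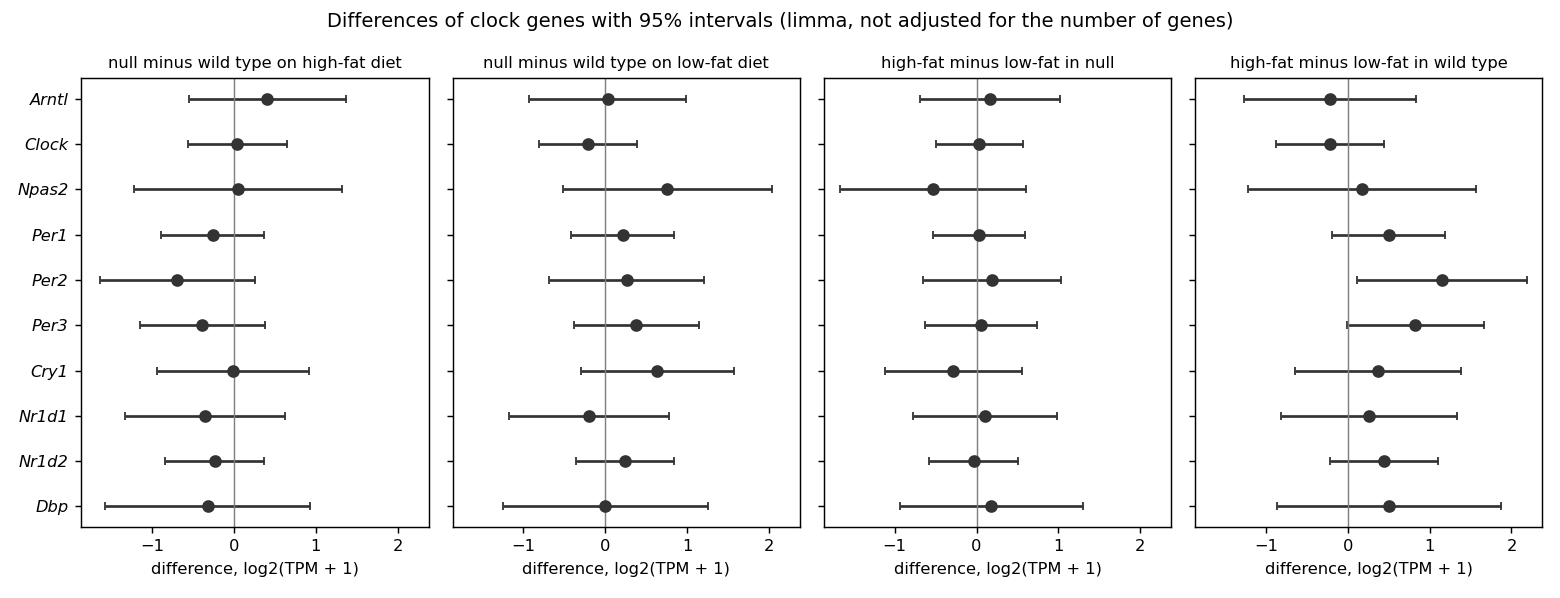
Difference of each clock gene in log2(TPM + 1) (horizontal axes) in 4 comparisons named above the panels; points are limma estimates and bars 95% intervals not adjusted for the number of genes. Intervals cross 0 for all genes in 3 panels, and in wild type between the diets that of Per2 runs from 0.11 to 2.19.

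Diet was compared to ask whether fat feeding went with other clock gene levels. Averaged over genotypes, 5 high-fat against 5 low-fat libraries, 0 of the 10 genes were called (0% of all genes). All 10 overlapped, where 1.59% of all genes lay without overlap higher and 0.413% lower. Per2 was the 1 of 10 with an unadjusted p under 0.05, against 9.69% of all genes. It differed by 0.67 (SE 0.30, interval 0.00064 to 1.34, limma adjusted p = 0.513), and Per3 by 0.44 (SE 0.24, interval -0.10 to 0.98, limma adjusted p = 0.542), or by 0.27 without Null_HFD 2. In wild-type pads, the 3 Per genes were each higher in both high-fat than in both low-fat libraries, 3 of 10 genes against 33.7% of all genes. The difference was 1.15 for Per2 (SE 0.46, interval 0.11 to 2.19, limma adjusted p = 0.761), 0.82 for Per3 (SE 0.37, interval -0.01 to 1.66, limma adjusted p = 0.761) and 0.50 for Per1 (SE 0.30, interval -0.19 to 1.19, limma adjusted p = 0.761). None of the 10 was called there (0% of all genes), and 1 had an unadjusted p under 0.05 (5.61% of all genes). That was Per2, with an unadjusted limma p of 0.0334, or 0.0820 after median-of-ratios scaling. The median of all genes was 0.20 higher on the high-fat diet in wild type, and after median-of-ratios scaling Per2 differed by 0.96, Per3 by 0.62 and Per1 by 0.29, with Per1 then overlapping. Clock, at -0.42 after scaling, was then lower without overlap, where 11.5% of all genes were lower without overlap before scaling. WT_HFD 2, rich in lymph node markers, held the highest Per1. Without it and Null_HFD 3, WT_HFD 1 was the only WT_HFD library left. The wild-type diet difference was then 1.32 for Per2, 1.09 for Per3 and 0.34 for Per1. Without WT_LFD 1 it was 0.76 for Per2 and 0.33 for Per1, and without WT_HFD 1 it was 0.56 for Per3. Each of these also left a single library in a group. Other lists were also higher on the high-fat diet in wild type, with 8 of 10 luminal epithelium markers (median 0.59, all genes 0.20; sums of 1323 and 1733 TPM in WT_HFD, against 608 and 1343 TPM in WT_LFD libraries) and 11 of 12 glucocorticoid receptor targets (median 0.55). Without the lymph node-rich libraries, which leaves a single WT_HFD library, the glucocorticoid count was 6 of 12. The part of these in the Per values was not tested.

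In null pads the diets overlapped for all 10 genes, where 6.6% of all genes lay without overlap higher and 4.49% lower. Of the 10, 0 were called (0.00591% of all genes) and none had an unadjusted p under 0.05 (6.67% of all genes). The smallest p values were those of Npas2 (-0.53, SE 0.50, interval -1.67 to 0.60, limma adjusted p = 0.834) and Cry1 (-0.28, SE 0.37, interval -1.11 to 0.55, limma adjusted p = 0.876). Without Null_HFD 3, or without it and WT_HFD 2, Cry1 differed by -0.69 and Npas2 by -0.16, with limma adjusted p values for Cry1 of 0.672 and 0.569. Without Null_HFD 1, Npas2 differed by -1.06 and Cry1 by -0.09, and without Null_HFD 2 Cry1 differed by -0.07. Without Null_LFD 1, Npas2 differed by -0.29. Luminal epithelium markers were lower on the high-fat diet in null pads for 10 of 10 genes (median -1.44, all genes 0.04), 8 of them with an unadjusted p under 0.05 and 0 called, and their part in the clock values was not tested. The interaction, which sets the genotype difference on the high-fat diet against that on the low-fat diet, called 0 of 10 genes (0% of all genes), with none at an unadjusted p under 0.05 (4.14% of all genes). Of the 10, 8 had a negative interaction, with a median of -0.48 against -0.13 for all genes, and after median-of-ratios scaling the medians were -0.33 and -0.000306. Luminal epithelium markers had a negative interaction for 10 of 10 genes (median -2.09). Per2 stood at -0.96 (SE 0.59, interval -2.30 to 0.38, limma adjusted p = 1.00) and Per3 at -0.77 (SE 0.48, interval -1.85 to 0.32, limma adjusted p = 1.00). Leaving out 1 library at a time, Per2 ran between -1.35 (without WT_LFD 2) and -0.57 (without WT_LFD 1), and stood at -0.63 without Null_LFD 1. Per3 ran between -1.12 (without Null_HFD 2, limma adjusted p = 0.988) and -0.50 (without WT_HFD 1), and stood at -0.51 without Null_HFD 3.

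The clock genes also differed between libraries of the same group, and these differences were followed through ratios and correlations. The ratio of Nr1d2 to Arntl TPM, which scaling of a library cannot change, was 7.03, 7.17 and 2.80 in Null_HFD, 15.8 and 4.55 in WT_HFD, 5.64, 4.56 and 8.60 in Null_LFD, and 3.15 and 8.73 in WT_LFD libraries. Each group held both high and low ratios. The ratio of Dbp to Arntl TPM was 1.47, 3.52 and 1.46 in Null_HFD, 8.43 and 1.38 in WT_HFD, 1.38, 1.33 and 4.02 in Null_LFD, and 1.00 and 4.02 in WT_LFD libraries. In 4 libraries, WT_HFD 1, WT_LFD 2, Null_LFD 3 and Null_HFD 2, Dbp exceeded 3 times the Arntl level, and in the other 6 it stayed under 1.5 times.

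**Figure D3:**
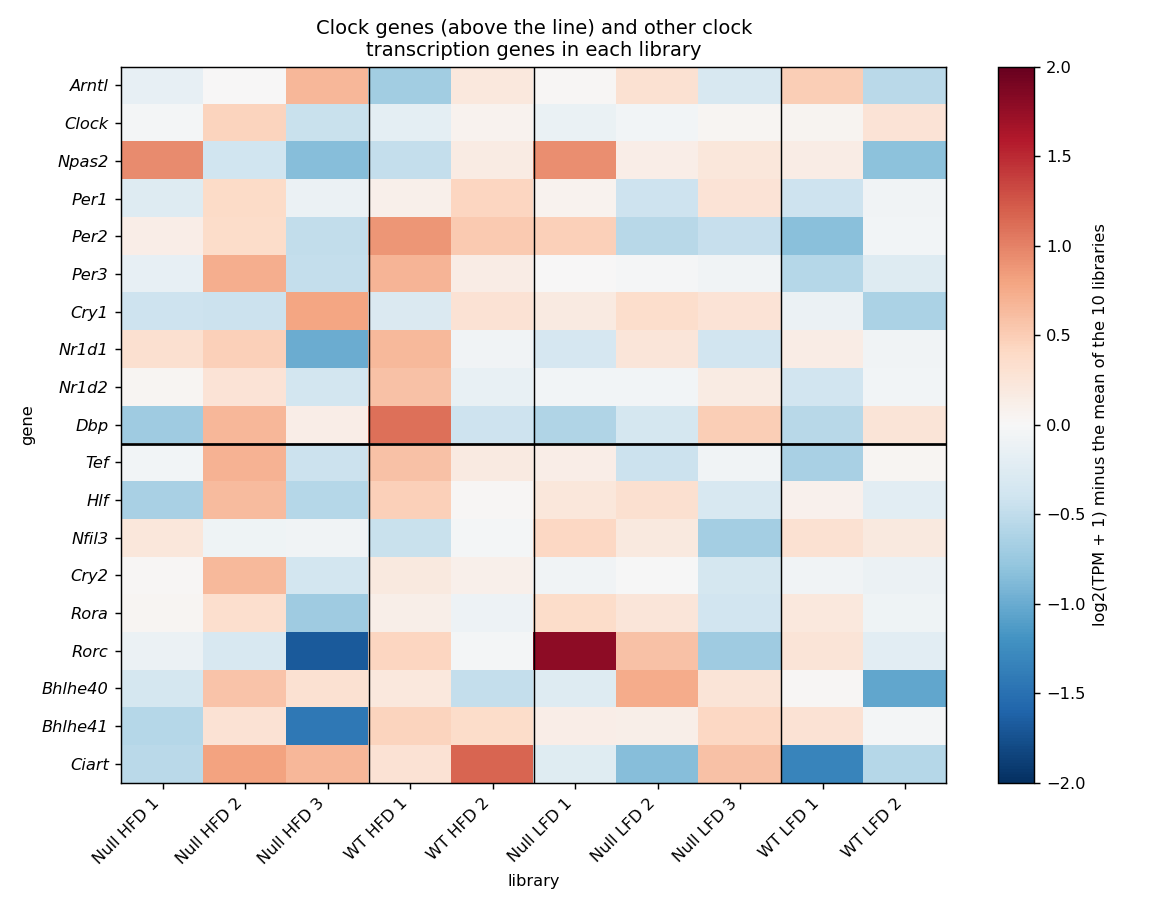
Log2(TPM + 1) of the 10 clock genes (above the line) and 9 other clock transcription genes in each library, as the difference from the mean of the 10 libraries (colour, red higher, blue lower). WT_HFD 1 is low in Arntl and high in Per2, Per3, Nr1d1, Nr1d2, Dbp and Tef, while Null_HFD 3 is high in Arntl and Cry1 and low in Nr1d1.

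Correlations were computed over the 10 libraries on log2(TPM + 1) for the 45 pairs of these genes, with permutation p values from 100000 resamples. Per3 and Nr1d2 had the highest Pearson r of the 45 pairs, though not the highest rho (Pearson r = 0.86, permutation p = 0.0018, adjusted over the 45 pairs 0.081; Spearman rho = 0.70, permutation p = 0.0315, adjusted 0.292). Arntl and Nr1d2 ran against each other (Pearson r = -0.80, permutation p = 0.00551, adjusted 0.116; Spearman rho = -0.72, permutation p = 0.0234, adjusted 0.292). Per2 and Per3 had r = 0.77 (permutation p = 0.00775, adjusted 0.116) and rho = 0.77 (permutation p = 0.0126, adjusted 0.292). In all, 9 of the 45 pairs had an unadjusted p under 0.05, and 0 passed after adjustment. The share of other gene pairs with such p values was not computed, so whether 9 of 45 is unusual here is not known. The permutations ran over all 10 libraries without regard to group. After median-of-ratios scaling, 1 pair passed, Arntl with Nr1d2 (r = -0.93, permutation p adjusted 0.0054).

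Without the 2 libraries farthest from the median of the first gene named, r was 0.66 for Per3 and Nr1d2 and -0.55 for Arntl and Nr1d2. Those left out were Null_HFD 2 and WT_HFD 1 for Per3, and WT_HFD 1 and Null_HFD 3 for Arntl. Leaving out extremes also narrows the range of that gene, so the part of these libraries in the strength cannot be told from it. Arntl with Nr1d1 stood at -0.47 over all libraries (permutation p = 0.173, adjusted 0.385) and at 0.31 without those farthest from the Arntl median. Per2 with Per3 stood at 0.56 without its farthest libraries. Without Null_HFD 3 and WT_HFD 2, the lymph node-rich libraries, r was 0.88 for Per3 with Nr1d2 and -0.72 for Arntl with Nr1d2. Taken as deviations from group means, which removes genotype and diet, r was 0.81 for Per3 with Nr1d2, -0.87 for Arntl with Nr1d2 and 0.62 for Per2 with Per3. Arntl with Cry1 stood at r = 0.66 over all libraries (permutation p = 0.0378, adjusted 0.189; rho = 0.67, permutation p = 0.0389, adjusted 0.292), 0.82 within groups and 0.44 without the lymph node-rich libraries. Cry1 with Nr1d1 stood at r = -0.72 (permutation p = 0.0172, adjusted 0.189; rho = -0.50, permutation p = 0.146, adjusted 0.498), -0.81 within groups and -0.47 without those libraries. The sign within groups matched that over all libraries for 43 of 45 pairs. Both were computed from the same values, so the match is partly built in. All values of a pair come from the same libraries and share each library's TPM total.

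**Figure D4:**
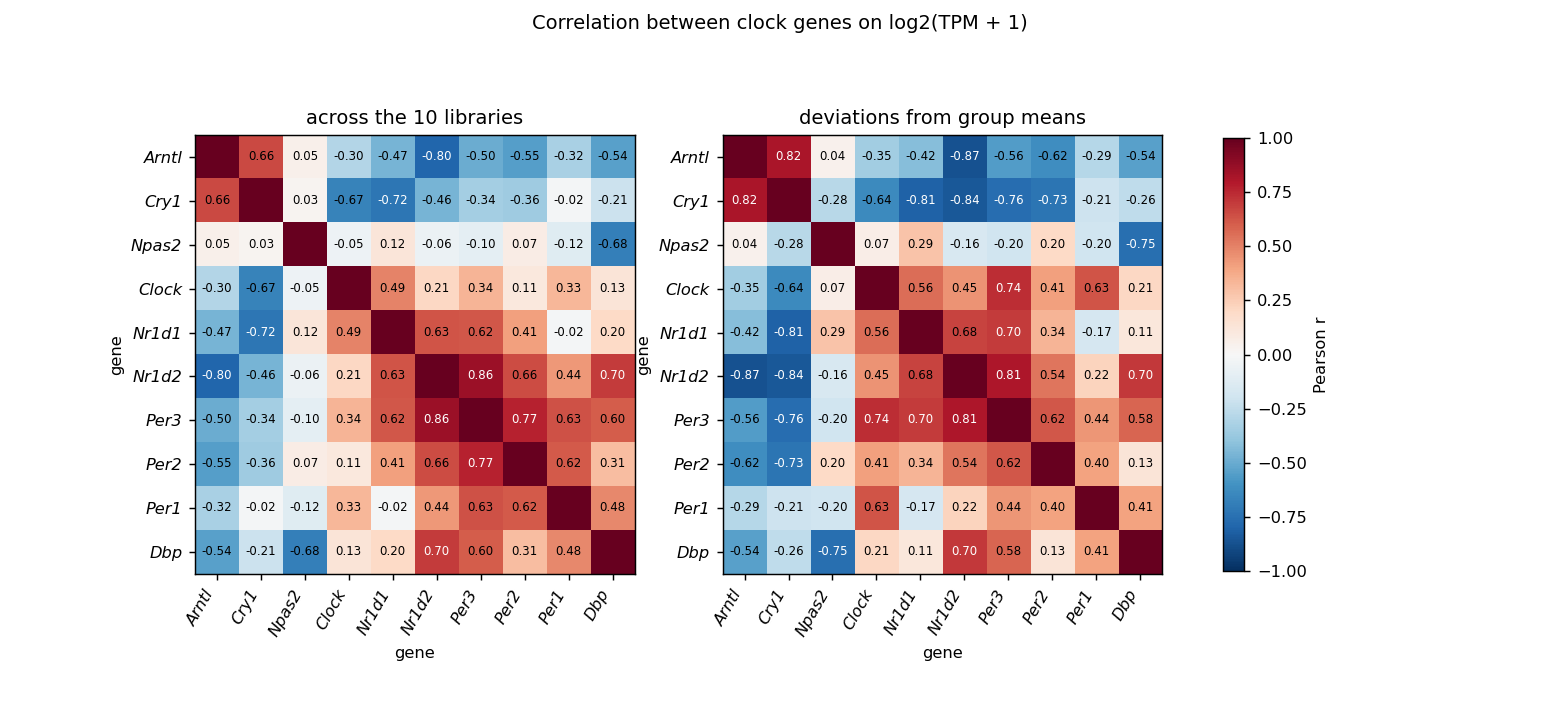
Pearson r between clock genes on log2(TPM + 1), over the 10 libraries (left) and over deviations from group means (right); rows and columns are genes and colour gives r. Arntl is negative with Nr1d1, Nr1d2, Per3, Per2 and Dbp in both panels, and Arntl with Nr1d2 stands at -0.80 and -0.87.

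The promoters of Per3, Cry1, Nr1d1 and Nr1d2 are shown because these genes are among the pairs above and their windows hold letters of elements through which the clock acts. RefSeq windows (GRCm38.p6) were matched for 9 of the 10 genes, all but Per2, and the 250 bases before each start were searched on both strands. The motifs were the E-box CACGTG, its variant CACGTT, the D-box TTATGTAA and the REV-ERB and ROR core element AGGTCA, and none of the matches shown overlaps another. They occur in 6.02%, 3.85%, 0.819% and 14% of all 32851 such windows. Matches are in capitals, and each sequence runs 5′ to 3′ on the gene's strand, which is minus for all 4: Per3 at chr4:151044666-151044915, Cry1 at chr10:85185055-85185304, Nr1d1 at chr11:98775378-98775627 and Nr1d2 at chr14:18239107-18239356.
Per3: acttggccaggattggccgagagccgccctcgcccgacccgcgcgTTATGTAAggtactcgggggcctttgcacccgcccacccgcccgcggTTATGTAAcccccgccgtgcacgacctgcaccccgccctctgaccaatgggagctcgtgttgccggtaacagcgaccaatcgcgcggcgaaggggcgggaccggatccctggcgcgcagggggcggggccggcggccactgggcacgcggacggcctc
Cry1: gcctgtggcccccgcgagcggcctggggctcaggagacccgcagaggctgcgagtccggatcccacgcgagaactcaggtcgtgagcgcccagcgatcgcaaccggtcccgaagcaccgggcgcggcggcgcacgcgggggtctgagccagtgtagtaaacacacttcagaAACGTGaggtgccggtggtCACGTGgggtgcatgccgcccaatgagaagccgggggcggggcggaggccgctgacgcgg
Nr1d1: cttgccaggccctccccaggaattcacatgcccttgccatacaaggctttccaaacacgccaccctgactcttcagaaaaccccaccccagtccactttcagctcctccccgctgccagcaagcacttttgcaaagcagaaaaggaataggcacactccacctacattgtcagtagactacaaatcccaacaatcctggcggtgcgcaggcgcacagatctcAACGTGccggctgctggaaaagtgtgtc
Nr1d2: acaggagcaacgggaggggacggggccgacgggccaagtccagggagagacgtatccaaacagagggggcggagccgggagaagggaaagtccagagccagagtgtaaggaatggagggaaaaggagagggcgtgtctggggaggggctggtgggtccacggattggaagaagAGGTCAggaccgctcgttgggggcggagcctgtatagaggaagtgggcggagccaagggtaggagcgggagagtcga
Per3 holds the D-box letters at 205 and 158 bases before its start, the element bound by DBP and its relatives. Cry1 holds the E-box at 60 bases and the variant, on the reverse strand, at 79 bases before the start. Nr1d1 holds the variant on the reverse strand at 28 bases, and Nr1d2 holds the core element at 77 bases before its start. The Dbp, Npas2 and Arntl windows hold none of the 4 motifs, 1 of 3 Clock windows holds the core element at 119 bases, and 1 of 2 Per1 windows holds an E-box at 166 bases and a core element at 137 bases. A match describes letters in this window, and motifs elsewhere in these genes were not searched.

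The rest of the clock pathway was described from lists of other members. Of 12 other clock transcription genes, 0 were called in any of the 7 comparisons. Of these, 9 of 12 were higher in null pads on the low-fat diet (median 0.13, all genes 0.15) and 10 of 12 lower under high-fat feeding (median -0.34, all genes 0.02). The latter count was 8 of 12 without the lymph node-rich libraries, which leaves a single WT_HFD library. Ciart, which encodes a repressor of CLOCK and BMAL1, measured 1.36, 4.95 and 4.45 TPM in Null_HFD, 3.19 and 6.66 TPM in WT_HFD, 1.90, 0.904 and 4.16 TPM in Null_LFD, and 0.375 and 1.31 TPM in WT_LFD libraries. It lay 1.07 higher on the high-fat diet (SE 0.40, limma adjusted p = 0.513), with overlap among the 5 libraries of each diet. Tef, a D-box activator like DBP, differed by 0.44 between the diets (SE 0.25, limma adjusted p = 0.549). Bhlhe40, an E-box repressor, differed by 0.53 (SE 0.31) and its relative Bhlhe41 by -0.44 (SE 0.29) between genotypes, both at a limma adjusted p of 0.98. Hlf and Rorb differed by -0.16 and -0.14 between genotypes, and Timeless and Cry2 by 0.43 and 0.25 between diets, with limma adjusted p values between 0.55 and 0.984.

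The enzymes that set clock protein stability gave 0 called genes of 10. Csnk1d, a casein kinase that phosphorylates PER proteins, differed by 0.34 between genotypes (SE 0.16, limma adjusted p = 0.98) and by 0.33 between diets (SE 0.16, limma adjusted p = 0.531). Its relative Csnk1e differed by 0.29 between genotypes, Csnk2a1 by -0.06 and the ligase gene Btrc by -0.10. Between diets, Fbxl21, an F-box gene that acts on cryptochromes, differed by 0.51, Csnk2b by 0.31 and Gsk3b by 0.24 (limma adjusted p between 0.513 and 0.543). Fbxl21 was low, at 0.547 to 1.98 TPM. Csnk2b was highest in the lymph node-rich libraries, at 122 TPM in WT_HFD 2 and 118 TPM in Null_HFD 3, against 71.3 to 99.4 TPM elsewhere. Among the 10 clock-controlled outputs, none was called. Nampt, the rate-limiting enzyme of NAD salvage and a target of CLOCK and BMAL1, measured 61.4, 49.2 and 32.8 TPM in Null_HFD, 68.7 and 69.2 TPM in WT_HFD, 58.3, 46.8 and 51.6 TPM in Null_LFD, and 68.5 and 74.2 TPM in WT_LFD libraries. All 6 null libraries lay below all 4 wild-type ones, as for 0.378% of all genes. The other lists held 96 entries, and among them Ier3 also lay without overlap in this comparison, higher in null pads. Nampt differed by -0.51 (SE 0.18, limma adjusted p = 0.98), and after median-of-ratios scaling by -0.58 with overlapping groups. Tsc22d3, a glucocorticoid-induced gene that cycles in many organs, differed by 1.13 between the diets (SE 0.38, limma adjusted p = 0.513). Its highest values were in the lymph node-rich libraries, 357 TPM in WT_HFD 2 and 240 TPM in Null_HFD 3. The other high-fat libraries held 126 to 171 TPM, within the 52.8 to 175 TPM of the low-fat libraries. Ppp1r3c, a glycogen-targeting phosphatase subunit, differed by -0.89 between the diets (limma adjusted p = 0.513). It measured 14.1 TPM in WT_HFD 2 and 13.1 TPM in Null_HFD 3, the lymph node-rich libraries, against 31.2 to 63.2 TPM in the others. Alas1, the first enzyme of haem synthesis, differed by -0.32 between genotypes and 0.30 between diets, Lpin1 by -0.51 between genotypes, and Tspan4 by 0.25 and 0.27.

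Per1 is also a target of the glucocorticoid receptor and of immediate early signalling, so both were examined. Of 12 glucocorticoid receptor targets, 0 were called, and 12 of 12 were lower in null pads under high-fat feeding (median -0.67, all genes 0.02). That count became 6 of 12 without the lymph node-rich libraries, which leaves a single WT_HFD library. WT_HFD 2 held this list 0.98 above the mean of the 10 libraries in log2(TPM + 1), against -0.48 to 0.19 in the others. Klf9, Fkbp5, Zbtb16 and Errfi1 differed by -0.52, -0.65, -0.66 and -0.31 between genotypes, and Zbtb16, Fkbp5 and Nfkbia by 1.11, 0.71 and 0.62 between diets. Nfkbia measured 187 TPM in WT_HFD 2 and 165 TPM in Null_HFD 3, the lymph node-rich libraries, against 57.9 to 103 TPM in the others. Of 11 immediate early genes tested, 0 were called and 10 were higher in null pads over both diets, as were 63.5% of all genes. Their median was 0.61, against 0.08 for all genes, while Per1 differed by -0.02 (SE 0.20). Fos, Ier2, Ier3 and Nr4a1 differed by 0.84, 0.76, 0.63 and 0.61 between genotypes (limma adjusted p = 0.98 each). Between diets, Zfp36, Ier2, Egr1 and Ier3 differed by 0.62, 0.57, -0.55 and -0.31. Zfp36 measured 16.4 TPM in WT_HFD 2 and 15.1 TPM in Null_HFD 3, against 4.93 to 10.9 TPM in the other libraries.

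Among 11189 genes averaging 5 TPM or more, predicted genes left out, the patterns most like Arntl over the 10 libraries included those of Ankra2 (r = 0.93), Ntpcr (0.92), Bbx (0.90) and Tmem176a (0.89). The most opposed were Pygb, a glycogen phosphorylase (r = -0.87), Aldh3b2 (-0.85), Eif1 (-0.83), Ppara, a fatty acid-sensing nuclear receptor (-0.83), and Clmp (-0.82). Nr1d2 was the 15th most opposed to Arntl of the other 11188 genes. Per2 ranked 502nd, Dbp 530th, Per3 696th, Nr1d1 850th, Per1 1726th and Clock 1917th on that side, and Cry1 402nd in likeness. For Dbp, the patterns most alike were those of Mapk8 (0.86), Rnf121 (0.84), Ppp6c (0.83), Dis3l (0.81) and Mapk9 (0.80), and the most opposed were Acad8 (-0.92), Dctn6 (-0.86), Igkv10-94 (-0.85), Cradd (-0.79) and Wisp2 (-0.79). Nr1d2 ranked 29th and Per3 107th in likeness to Dbp, but Per1 359th, Per2 1473rd, Nr1d1 2857th and Clock 3891st. Arntl ranked 99th and Cry1 1417th among the most opposed to Dbp. Nfil3, which encodes a repressor at the same D-box that DBP activates and was singled out after its values were seen, ranked 10th among the most opposed (r = -0.77). It measured 8.14, 6.37 and 6.44 TPM in Null_HFD, 4.77 and 6.64 TPM in WT_HFD, 9.43, 7.97 and 3.90 TPM in Null_LFD, and 8.72 and 7.995 TPM in WT_LFD libraries. These correlations are descriptions over 10 libraries that share their TPM totals, and no test was made of them.

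**Figure D5:**
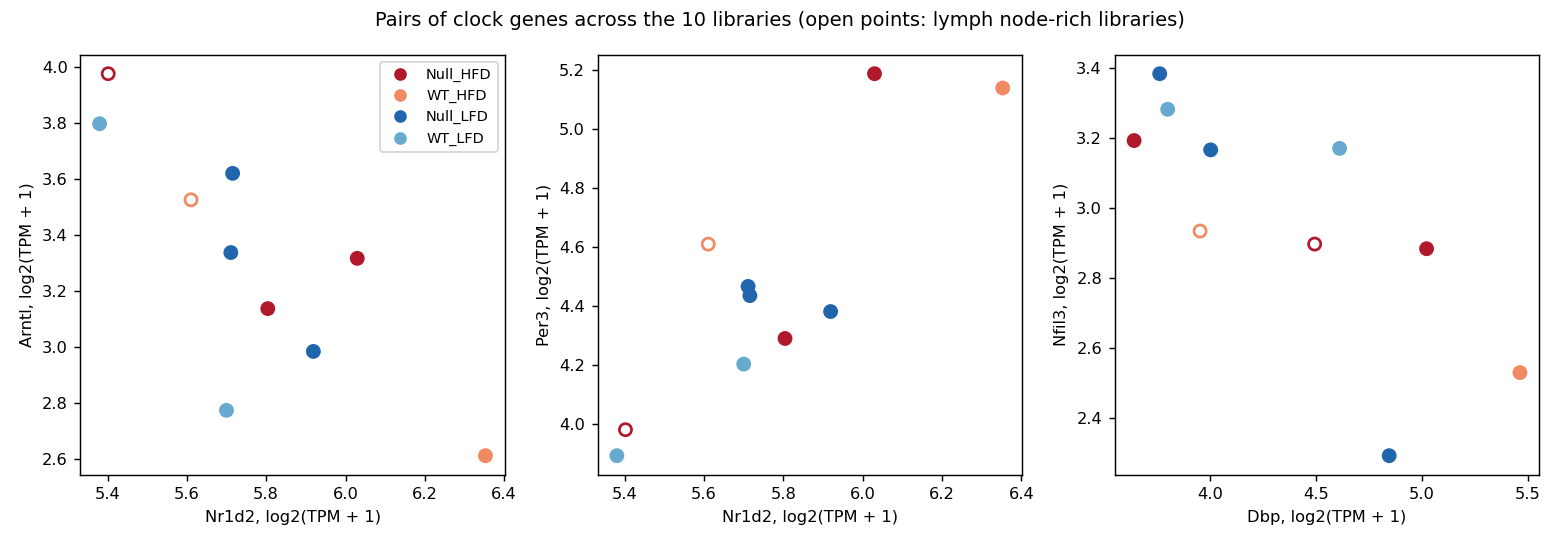
Log2(TPM + 1) of Arntl against Nr1d2, Per3 against Nr1d2 and Nfil3 against Dbp; each point is 1 library, colour gives its group and open points are the lymph node-rich libraries. Arntl and Nfil3 are lower where Nr1d2 and Dbp are higher (r = -0.80 and -0.77), and Per3 is higher where Nr1d2 is higher (r = 0.86).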

How the data were processed

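The authors deposited a single table of log2 values, genes by library and without pooling, whose column names map all 10 libraries. The values were read as log2(TPM + 1), a unit inferred from the values, since their lowest was 0 and they sum, taken back, to 946103 to 954463 TPM in each column. The submitters' processing notes name kallisto, limma and GRCm38. Roles, versions and the strand setting of the counting are not given there. Libraries were prepared with a stranded total RNA kit, per the labels' protocols. TPM keeps no read numbers, so depth is unknown. A line without a symbol, at most 0.0108% of TPM, was left out.

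The 16932 genes that reached 1 TPM in 2 or more libraries entered a limma fit (version 3.58.1 under R 4.3.3) of 4 group means, with trended empirical Bayes variances, two-sided tests and Benjamini-Hochberg adjustment over all genes in each of 7 comparisons. Because the scale adds 1 to TPM, differences of low genes such as Npas2 are understated. The labels call the samples replicates; that they are biological comes from the series' design text. The procedure was tested on simulated data. Permutation tests of correlation and figures used Python 3.11.15. Gene coordinates came from GENCODE M21 and promoters from RefSeq. Same-numbered libraries of different groups were not paired by the labels. The members and lists were chosen with earlier results of these data known. Named list genes are among the 4 of each list with the smallest p in the averaged genotype or diet comparison, and likeness is given for the 5 genes most like and most unlike Arntl and Dbp, of which 1 is not reported here. Marker lists are given as sums and counts, without the gene-level values the rule also picks. Alternatives covered scaling, filters, the added constant, variance models, the replicate block and left-out libraries. List counts without both lymph node-rich libraries were added after the data were seen.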

Additional observations from a re-analysis of the deposited data

How the results depend on the processing

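No clock gene was called in any of the 7 comparisons in any of the 137 pairs of a comparison and an alternative, where the lowest adjusted p of a member was 0.403 and at most 18 of all genes were called. All 354 alternative values of the 18 member differences followed kept their direction and their side of the threshold. The 18 were the differences without overlap between groups and the 2 with the smallest p in each comparison. The other differences, some of them near 0, were not followed. Groups without overlap cannot change direction when 1 library is left out, so this steadiness was partly fixed by the choice. Leaving out 1 library at a time moved the wild-type diet difference of Per2 between 0.76 and 1.54, that of Per3 between 0.56 and 1.09, the high-fat genotype difference of Per3 between -0.74 and -0.12 and the low-fat genotype difference of Cry1 between 0.38 and 0.89. The count of correlated pairs passing adjustment was 0 by Spearman's rho, without the farthest libraries and without the lymph node-rich ones, and 1 with median-of-ratios scaling; the cause was not tested. It was not computed on deviations from group means. With the replicate number as a block, 0 members were called in each comparison. Correlations of deviations between the 13 same-numbered pairs of libraries ran from -0.35 to 0.41, with 2 of 13 over 0.1. Those of the 24 other pairs ran from -0.50 to 0.50, with 2 over 0.1. In groups of 2 libraries the deviations mirror each other, so these values cannot settle whether same-numbered samples share more than a number. With 2 or 3 libraries a group, differences as wide as the intervals given could not be resolved.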
